A study of Rattus norvegicus with 9 samples.

Results

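Among the genes expressed in HBZY-1 cells, 86 of 12192 were at least 2-fold lower in cells given a leech extract than in both control cells and LPS-induced cells, with every extract library below all 6 others and with LPS and control means less than 2-fold apart, all on a log2(TPM + 1) scale. HBZY-1 is a rat cell line grown from mesangial cells of the glomerulus, where they hold the capillary loops together. The 9 libraries fall into 3 groups of 3: control cells, cells of the LPS-induced model, and cells that received the high dose of an aqueous extract of freeze-dried leech (Poecilobdella manillensis) powder. The labels give no dose or time, do not say whether the extract cells also received LPS or whether the control cells were mock treated, and report the replicates as biological without naming separate culture days. All groups are 1 cell line, so p-values measure only the spread between its cultures or preparations.

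The 86 genes were selected on the measured values themselves. Expression was deposited as TPM, the share of each gene in a library scaled to 1000000, and was taken here as log2(TPM + 1). A gene was kept when its mean over the 9 libraries was at least 1 TPM and its extract mean was lower by 1 or more (2-fold) than each of the other 2 means. In addition all 3 extract values had to lie below every control and every LPS value, and the LPS mean had to lie within 1 of the control mean. All 3 differences between groups therefore entered the choice, and they are given below as a description without a test. Of all tested genes 0.705% met the whole rule. The mirrored rule, for genes higher in extract cells than in both other groups, was met by 51 genes.

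Mesangial cells make and turn over the matrix of the glomerulus and respond to injury by dividing, by laying down matrix and by releasing inflammatory mediators. LPS, a component of the outer membrane of bacteria, is sensed by Toll-like receptor 4 and turns on inflammatory genes through NF-kB. The NLRP3 inflammasome, with its partner TXNIP, processes interleukin-1 in inflamed cells and gives the series part of its title. Blood-feeding leeches secrete proteins that block clotting, of which thrombin inhibitors are the best known.

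The deposited tables list Ensembl rat gene identifiers without gene names. The reference of 47357 rat genes used here (assembly GRCr8) held an Ensembl identifier for 0 of them, so 0 of the 86 genes could be given a name, a function, a position or a sequence. The genes are therefore described by level and by pattern, and ranked by the smaller of their 2 differences, so that rank 1 lies farthest below both other groups. For the same reason the mesangial and other cell type markers could not be checked.

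Extract cells were at least 2-fold below control for 282 tested genes and at least 2-fold below both groups for 115. Without overlap between libraries, 1.76% of tested genes were at least 2-fold lower in extract than in control cells and 2.00% were at least 2-fold lower than in LPS cells. Of the 115 genes, 18 had an extract value that reached the range of the other groups. A further 11 were left out because the LPS and control means differed by 1 or more, 7 with LPS lower and 4 with LPS higher, which left the 86. Their differences lay close to the limit in many cases: 20 of the 86 had a smaller difference below 1.1, and 29 further genes met every other part of the rule with a smaller difference of at least 0.9. The 3 genes nearest the limit on the inside stood at 1.0019, 1.0082 and 1.0099, and the 3 nearest on the outside at 0.9993, 0.995 and 0.9936.

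The median log2 difference over the 86 genes was -1.46 in extract minus control and -1.38 in extract minus LPS, against -0.04 and 0.04 over all tested genes. Both differences contain the same extract libraries. On the TPM scale the extract mean was between 3.24% and 48.9% of the control mean, with a median of 33.3%, and between 6.19% and 49.5% of the LPS mean, with a median of 34.1%. For 30 genes it was under 25% of control. The rule fixed that the extract libraries lie apart, and the size of the gap varied. The lowest control or LPS library exceeded the highest extract library by a factor of 1.43 to 10.1, with a median of 2.22, and by at least 2 for 61 genes.

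**Figure D1:**
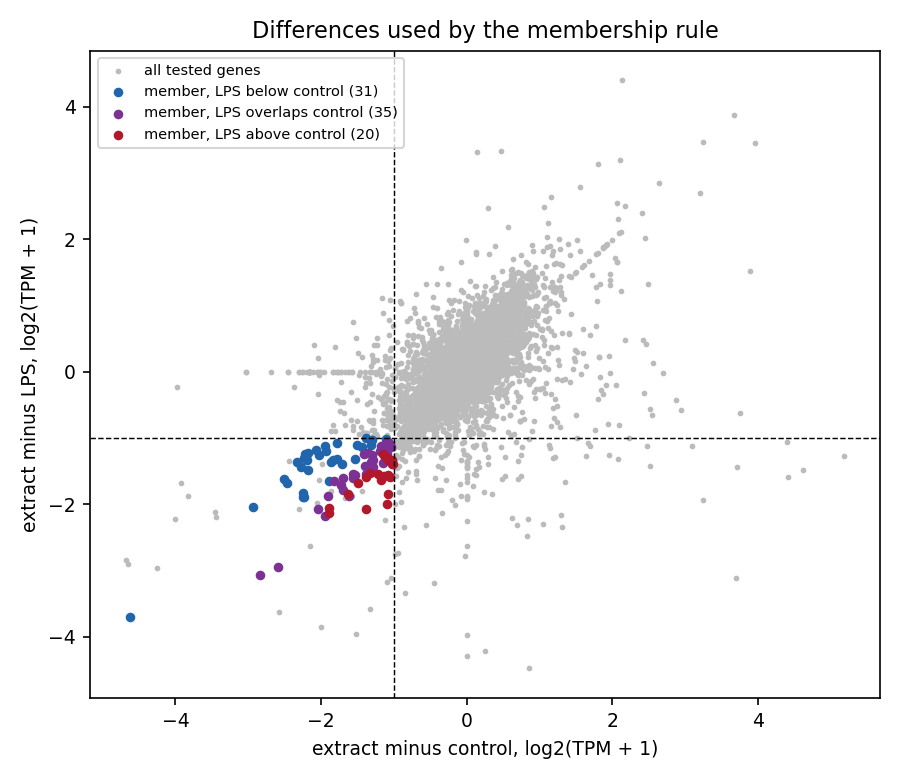
Each point is a gene, placed by its extract minus control (horizontal) and extract minus LPS (vertical) difference of mean log2(TPM + 1), with the limits of -1 as dashed lines. The 86 selected genes are coloured by the position of their LPS libraries relative to control (31 below, 35 overlapping, 20 above), and most lie close to the limits, with 1 gene far from the rest at -4.62 and -3.70.

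Among the 86, 5 genes were at least 4-fold lower than both other groups on the log2(TPM + 1) scale, and 1 of them at least 8-fold lower. ENSRNOG00000007539 ranked first. It stood at 99.83, 114.74 and 98.09 TPM in the 3 control libraries, at 48.04, 59.35 and 56.39 TPM in the LPS libraries and at 2.40, 4.76 and 2.97 TPM in the extract libraries. No groups overlapped, and the order was control, LPS, extract. The control mean was 104.2 ± 9.2 TPM, the LPS mean 54.6 ± 5.9 TPM and the extract mean 3.38 ± 1.23 TPM (SD, n = 3), which placed extract cells 30.9-fold below control and 16.2-fold below LPS. Because the LPS level itself was lower, by -0.92 on the log2 scale, this gene passed the limit of 1 for the LPS-control difference only narrowly.

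ENSRNOG00000003745, ranked second, showed another pattern. Its control libraries held 68.05, 82.42 and 69.62 TPM, its LPS libraries 80.18, 82.48 and 93.67 TPM and its extract libraries 8.45, 10.78 and 8.92 TPM. Control and LPS values overlapped, while every extract value was far below both. Extract cells were 7.82-fold below control and 9.11-fold below LPS cells on the TPM scale, with log2(TPM + 1) differences of -2.84 and -3.06 and an LPS minus control difference of 0.22.

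The gene at rank 3 was more abundant, with 160.61, 195.90 and 169.44 TPM in control, 195.34, 251.83 and 226.02 TPM in LPS and 29.30, 29.73 and 25.54 TPM in extract libraries. Its lowest LPS library was just below its highest control library, so these groups overlapped. The gene at rank 4 stood at 13.64, 18.47 and 15.92 TPM in control and 13.51, 17.71 and 18.03 TPM in LPS libraries, 2 ranges that nearly coincide, and at 3.04, 3.29 and 2.97 TPM in extract libraries. The gene at rank 5 resembled that at rank 1, with 16.55, 20.18 and 17.30 TPM in control, 8.03, 10.36 and 9.27 TPM in LPS and 1.36, 1.55 and 1.53 TPM in extract libraries, again without overlap between any groups.

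**Figure D2:**
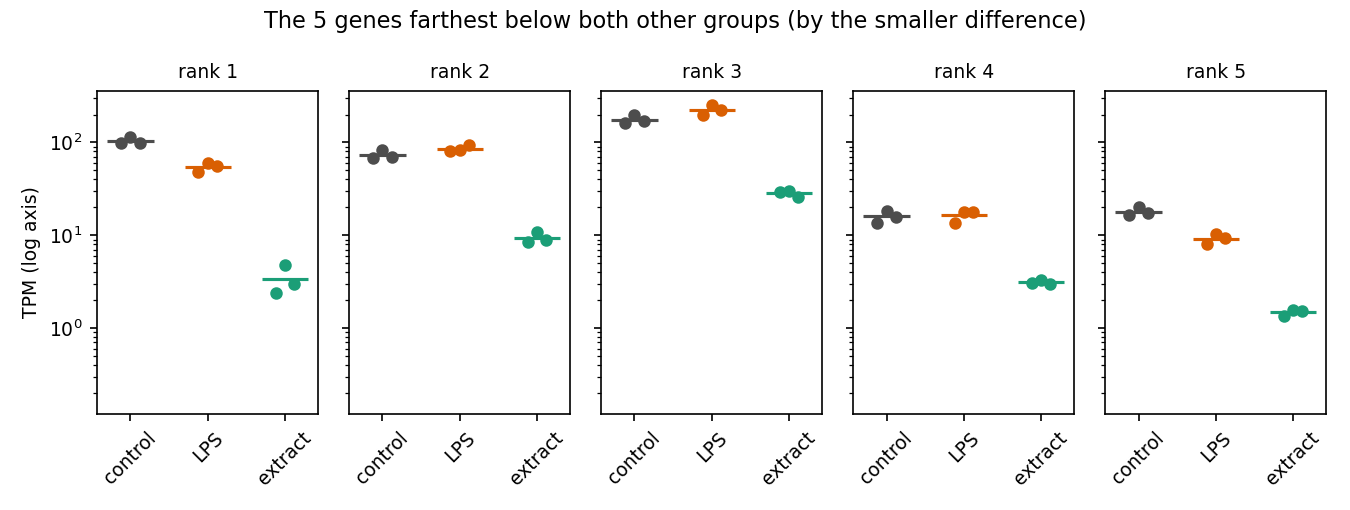
TPM on a log axis for the 5 genes farthest below both other groups, ranked by the smaller of their 2 differences on the log2(TPM + 1) scale. Points are libraries, 3 per group, and horizontal bars are group means. In ranks 1 and 5 the LPS libraries lie between control and extract, and in ranks 2 to 4 they lie with control.

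The genes covered a wide range of levels and were more often abundant than other genes. The mean over control and LPS libraries ran from 1.62 to 3112 TPM with a median of 56.2 TPM, against 19.5 TPM over all tested genes. At least 100 TPM was reached by 30 of the 86 (34.9%) and by 12.2% of tested genes. The limit of 1 on the log2(TPM + 1) scale asks more of genes of low level, which works in the direction of this comparison. Extract cells may hold at most 40.0% of a control mean of 5 TPM and 49.5% of one of 100 TPM. A gene under 1 TPM in control cells cannot meet the limit. The 30 abundant genes held a median of 39.8% of their control TPM in extract cells and the other 56 a median of 27.2%, a contrast in the direction that the limit itself favours.

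Summed over the 86 genes, control libraries held 14722, 15950 and 15014 TPM and LPS libraries 13308, 14771 and 14815 TPM. The extract libraries held 5142, 5109 and 4869 TPM. These sums correspond to between 1.47% and 1.595% of all TPM in control, between 1.33% and 1.48% in LPS and between 0.487% and 0.514% in extract libraries. Control and LPS sums overlap, and the extract sums stand apart, as the rule requires of each gene. The 10 genes with the highest control means made up 65.2% of the control sum.

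The most abundant of the 86 ranked 71st. Its control libraries held 2480.19, 2798.72 and 2526.07 TPM, its LPS libraries 3297.85, 3947.98 and 3619.71 TPM and its extract libraries 1300.68, 1266.74 and 1121.17 TPM. LPS values were above control and extract values below it, without overlap. Extract cells held 47.3% of the control level and 33.9% of the LPS level. The next in abundance, ranked 27th, took the opposite course in LPS cells, with 1413.22, 1425.34 and 1382.98 TPM in control, 749.92, 765.85 and 858.85 TPM in LPS and 287.72, 297.60 and 286.67 TPM in extract libraries. Its extract level was 20.7% of control.

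At the low end, 9 genes averaged under 5 TPM over control and LPS libraries. Their control means lay between 1.95 and 6.27 TPM and their extract means between 0.13 and 1.07 TPM. Of the 86, 9 were under 1 TPM in all 3 extract libraries, and 0 were listed at 0 TPM in any library. Extract means were under 10% of control for 8 genes, 5 of which averaged under 5 TPM, where the pseudocount of 1 compresses the log2 difference. The widest scatter was in the gene ranked 15th, at 0.21, 0.69 and 0.08 TPM in extract libraries, a coefficient of variation of 98.4%. Fewer cells that express a gene and less RNA per cell cannot be told apart in these bulk libraries.

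Being lowest in extract cells did not always go with similar levels in the other 2 groups. LPS libraries lay wholly below control for 31 genes (36.0%), wholly above for 20 (23.3%) and overlapped control for 35. Among all tested genes 37.6% lay wholly below and 12.5% wholly above. The split depended on the scaling of the libraries. With libraries rescaled by the median of ratios, a step that moved LPS minus control by 0.09 at the median gene, 22 of the 86 (25.6%) were below and 29 (33.7%) above, against 23.9% and 22.9% of tested genes. The LPS minus control difference took part in the choice of the genes, so nothing is read from these shares. The median LPS minus control difference was -0.02 with TPM as deposited and 0.07 after rescaling. It was 0.03 without control replicate 2 and 0.01 without LPS replicate 1, and stayed negative without any other library. Its sign therefore depends on the scaling and on single libraries. The number of genes wholly above control was 25 and 30 without these libraries, and 20 to 23 without any other. Leaving a library out also makes separation easier.

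**Figure D3:**
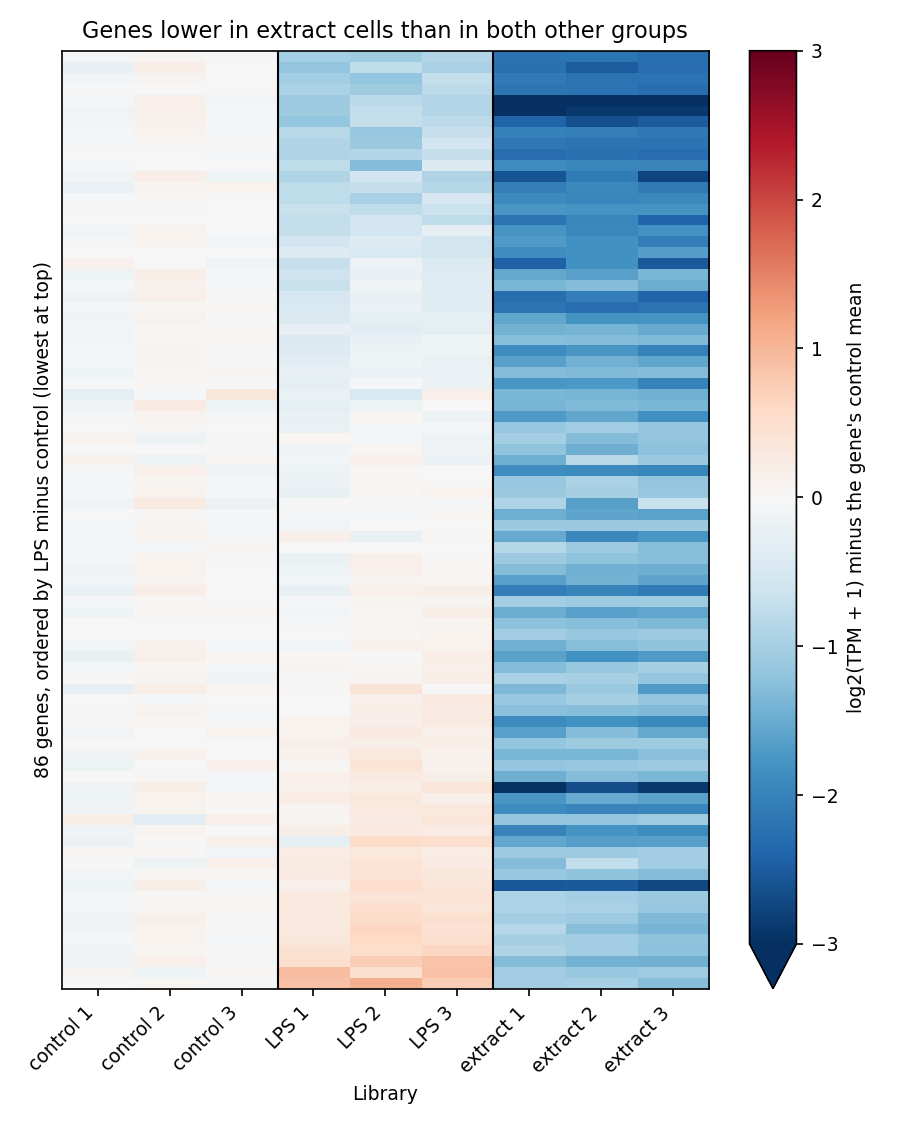
Each row is 1 of the 86 genes and each column a library. Colour shows log2(TPM + 1) minus the mean of the gene's control libraries, cut at -3, with rows ordered from the lowest LPS minus control difference (-0.98, top) to the highest (0.90, bottom). The 3 extract columns are blue in every row, while the LPS columns pass from blue through white to red.

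The difference between LPS and control means was under 1.5-fold for 67 of the 86 genes (77.9%, against 91.5% of tested genes). It was at least 1.5-fold below control for 16 genes and at least 1.5-fold above for 3. The matching shares of tested genes in each direction were not computed. Over all tested genes the median LPS minus control difference was -0.08 with TPM as deposited, so nothing is read from this split. The 3 genes with the highest LPS minus control differences were ranked 66th, 70th and 31st. The first of these, at 7.73, 7.96 and 7.28 TPM in control and 15.04, 17.06 and 13.54 TPM in LPS libraries, stood at 3.21, 3.35 and 2.59 TPM in extract libraries. The second stood at 15.34, 13.10 and 14.77 TPM in control, at 28.37, 20.62 and 27.11 TPM in LPS and at 6.43, 5.97 and 6.37 TPM in extract libraries. The third was an abundant gene with 292.75, 348.40 and 299.33 TPM in control, 437.05, 520.83 and 564.62 TPM in LPS and 126.81, 115.96 and 114.07 TPM in extract libraries. For all 3 the order was LPS, control, extract without overlap.

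Of the 16 genes at least 1.5-fold lower in LPS than in control cells, 6 averaged 100 TPM or more. Those with the lowest LPS minus control differences were ranked 46th, 34th and 49th. The first held 757.73, 815.67 and 756.25 TPM in control, 384.46, 373.02 and 422.44 TPM in LPS and 166.71, 169.70 and 160.66 TPM in extract libraries. The second was a gene of low level, with 4.51, 6.45 and 5.50 TPM in control, 1.84, 2.79 and 2.29 TPM in LPS and 0.37, 0.15 and 0.33 TPM in extract libraries. The third held 550.23, 611.18 and 576.03 TPM in control, 285.70, 256.79 and 353.26 TPM in LPS and 132.46, 124.20 and 123.42 TPM in extract libraries. In these 3 genes each group was lower than the one before it in the order control, LPS, extract.

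Within these 16 genes, 8 shared an order of the LPS libraries. The rule set no condition on this order, but it used the same values. In these 8, LPS replicate 3 was the highest, replicate 1 the middle and replicate 2 the lowest of the LPS libraries, an order found in 12 of the 86 (14.0%) and in 24.7% of tested genes. Replicate 2 held between 53.6% and 92.6% of the TPM of replicate 3. Their LPS means were between 50.6% and 60.8% of the control mean, and those of the other 8 between 42.0% and 61.5%, a window that the limits on the LPS-control difference set for all 16. Extract means were between 21.2% and 27.4% of control in the 8 genes and between 3.24% and 21.3% in the other 8. Control means ran from 38.8 to 1406 TPM in the 8 genes and from 4.55 to 1407 TPM in the other 8. The limit on the log2(TPM + 1) scale asks a deeper fall of genes of low level, so nothing is read from this contrast. The grouping by LPS library order was noticed in the data, with TPM as deposited, and was not tested. On that scale LPS replicate 3 was highest in 44.6% and replicate 2 lowest in 46.7% of tested genes. After median-of-ratios rescaling these shares were 31.7% and 33.1%. Among the 16 genes the matching counts were 9 and 8 on both scales.

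The genes also shared the position of single libraries within their group. The rule set no condition on this position, but it used the same values, so the position is not free of the choice. Control replicate 2 was the highest control library for 63 of the 86 (73.3%), against 34.4% of tested genes. LPS replicate 1 was the lowest LPS library for 60 (69.8%), against 32.4%, and extract replicate 3 was the lowest extract library for 47 (54.7%), against 32.5%. Control replicate 2 was highest and LPS replicate 1 lowest at once for 48 genes (55.8%), against 15.5% of tested genes. The steps were small next to the differences between extract cells and the other 2 groups. They were not small next to the median LPS minus control difference of -0.02 on the log2 scale. Control replicate 2 exceeded the mean of the other 2 control libraries by a median factor of 1.08, LPS replicate 1 stood at a median of 0.913 of the other 2 LPS libraries, and extract replicate 3 at 0.954 of the other extract libraries. Over all tested genes these medians were 0.995, 1.00 and 1.00. After median-of-ratios rescaling the shares were 74.4%, 65.1% and 55.8%. The genes come from the same 9 libraries and are not independent, so no test was made. The tested genes were not matched to the 86 for level.

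**Figure D4:**
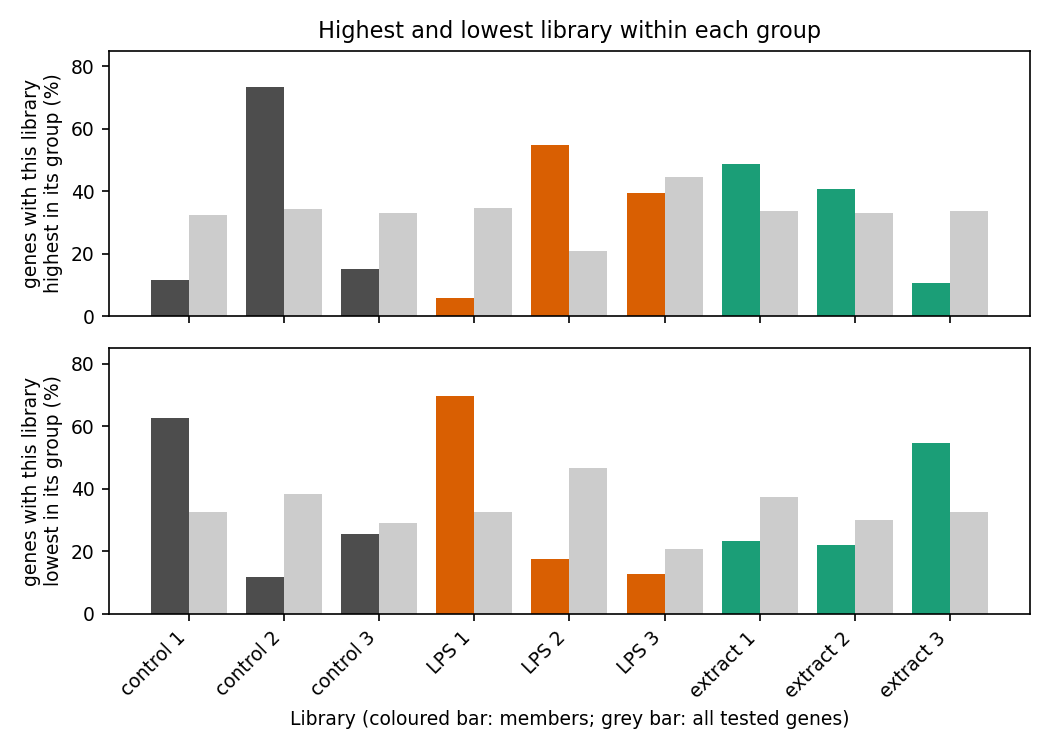
Bars give the percentage of genes for which a library was the highest (upper panel) or the lowest (lower panel) of the 3 in its group, coloured for the 86 genes and grey for all tested genes. Control 2 is highest in 73.3% and LPS 1 lowest in 69.8% of the 86 genes, against 34.4% and 32.4% of tested genes.

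The same was seen in pairs of genes. With the group means removed, the median Pearson's r between 2 of the 86 genes over the 9 libraries was 0.294, against 0.037 for pairs of tested genes, and r was above 0.8 for 8.43% of the 3655 pairs against 2.17%. After rescaling the medians were 0.322 and 0.00024. These correlations are given as a description, since all genes share the libraries and their depth. The tested genes were also not matched to the 86 for level, with medians of 19.5 and 56.2 TPM over control and LPS libraries. The spread between replicates was also somewhat wider than usual. For the 86 genes the coefficient of variation had a median of 6.99% over control, 8.71% over LPS and 7.72% over extract libraries, and 5.17%, 5.80% and 4.67% for tested genes. It passed 20% in 2 genes in control, 7 in LPS and 16 in extract libraries. The matching share of tested genes was not computed. Extract levels were low by the choice of genes, with a median of 15.5 TPM against 58.4 TPM in control, so these counts compare unlike levels. The part of single libraries in these correlations was not tested.

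The deposited transcript values sum to the gene values, so the level of a gene's main transcripts largely follows from the rule, and only their shares within the gene are free of it. Of the 86 genes, 69 had 1 transcript with at least 10% of the gene's TPM and 17 (19.8%) had more than 1, against 37.5% of tested genes. Those 17 genes had 41 such transcripts. The extract mean was below both other means for all 41, and for 39 every extract library lay below every control and LPS library, which is a description of the selected totals. One of the remaining 2, with 12.5% of the TPM of its gene, was lower in every LPS library than in every control library. It stood at 6.55, 8.76 and 6.27 TPM in control, at 4.81, 2.17 and 0 TPM in LPS and at 0, 2.66 and 2.46 TPM in extract libraries, so that LPS and extract values overlapped. The second, with 25.1% of its gene, was under 1 TPM in every library.

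Transcript shares, each transcript's TPM as a percentage of the TPM of its gene, were compared for the 16 genes with at least 5 TPM and a transcript share between 10% and 90%. With limma, 0 of the 16 had a share that differed by at least 10 percentage points at an adjusted p below 0.05 in extract versus control, where 0.637% of 4082 genes were called. The counts were also 0 of 16 in extract versus LPS, where 0.392% of genes were called, and in LPS versus control, where 1.37% were called. At an unadjusted p below 0.05, limma gave 3, 1 and 3 of the 16 genes in the same order of comparisons, against 16.8%, 15.7% and 17.0% of the 4082 genes. Neither the counts of 0 nor these counts set the 16 genes apart from the background. Among the 39 transcripts the differences in share ran from -11.0 to 11.0 points in extract versus control and from -10.7 to 10.6 points in extract versus LPS. The median size was 2.30 and 1.68 points, against a median standard error of 2.88 points. The smallest adjusted p (limma, Benjamini-Hochberg) was 0.284 in extract versus control, 0.436 in extract versus LPS and 0.208 in LPS versus control.

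The widest extract differences in share, in either direction, belonged to the gene ranked 74th. Its larger transcript took 69.5%, 66.7% and 69.5% of the gene in control libraries, 71.0%, 60.6% and 73.1% in LPS libraries and 49.7%, 65.7% and 57.3% in extract libraries. The extract values overlapped the LPS values but lay below all control values. The difference was -11.0 ± 4.5 points (SE, n = 3 per group, limma adjusted p = 0.383) from control and -10.7 ± 4.5 points (limma adjusted p = 0.436) from LPS, so it did not pass the test.

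**Figure D5:**
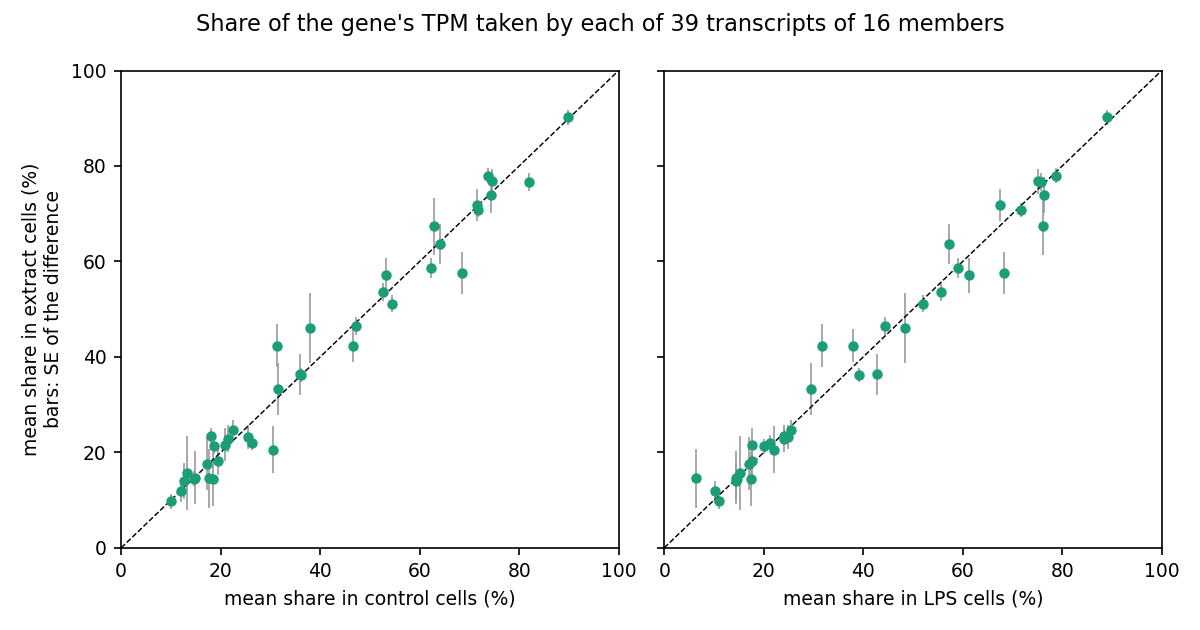
Mean share of the gene's TPM in extract cells (vertical) against control cells (left) and LPS cells (right) for 39 transcripts of 16 genes, in percent. Error bars are the standard error of the difference from limma, and the dashed line marks equal shares. The points follow the line, within 11.0 points in the left and 10.7 points in the right panel.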

How the data were processed

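RNA was sequenced from 9 libraries of the rat line HBZY-1. The authors deposited 1 gene and 1 transcript table of TPM, made with fastp, HISAT2 2.1.0 and RSEM 1.3.3 per the submitters' processing notes, which record no settings. The build, annotation and strandedness were not given in the sources used here. TPM keeps no read depth, so no counting error can be given. Consecutive transcripts were tied to genes on the assumption that both tables list genes in the same order. Their summed TPM had to match the gene's TPM within 0.006 multiplied by the number of transcripts plus 1.

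The 86 genes, and every list and rule, were chosen with earlier results of these data known. The plan for genes without names was counts and ranges, with identifiers for the 2 genes with the largest smaller difference. The values of other single genes, given by rank, were not part of that plan. As 0 identifiers matched a name, gene lists, cell type markers and promoter motifs were not run. Group means of log2(TPM + 1) were compared in Python 3.11.15 with pandas 2.3.3. Transcript shares were fitted in 1 model of all 3 groups with limma 3.58.1 (R 4.3.3) and Benjamini-Hochberg adjustment over 9157 transcripts, calling an adjusted p below 0.05 with a difference of at least 10 points. The share procedure was tested on simulated shares with differences well above the limit of 10 points. That test does not show how often differences near the limit would be found. Same-numbered libraries did not deviate together (r between -0.0554 and 0.0951), so numbers were not taken to pair them. Alternatives covered the pseudocount, filters, scaling, thresholds, single libraries left out and the share model. Alternatives for the medians, for the LPS-control split and for the library order were chosen after seeing the data.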

Additional observations from a re-analysis of the deposited data

How the results depend on the processing

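The number of genes meeting the rule depended on its thresholds. It was 86 as reported, 123 with a pseudocount of 0.1, 50 with a pseudocount of 5, 341 with a 1.5-fold limit, 5 with a 4-fold limit and 64 with an LPS-control limit of 0.5. Median-of-ratios rescaling gave 88, of which 83 were among the 86, and quantile normalization gave 85, of which 81 were. Leaving out each library in turn gave 79 to 94 genes. The median extract minus control difference was -1.16 with a pseudocount of 5, and the median extract minus LPS difference was -1.55 with 0.1 and -1.18 with 5. With the replicate number as a replicate block, 0 of the 16 genes had a called transcript share in limma in each of the 3 comparisons (2, 0 and 2 genes at an unadjusted p below 0.05 in LPS versus control, extract versus LPS and extract versus control, against 15.9%, 15.0% and 16.1% of 4082 genes), and the count was 0 under every other alternative run for the shares. Gene list and promoter motif alternatives were not run, since the genes have no names here.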
